A study of Equus caballus with 18 samples.

Results

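The transcripts of 5 enzymes or enzyme subunits of glycogen synthesis and breakdown in skeletal muscle were followed in Thoroughbred horses given clenbuterol: PHKG1, PHKA1, PYGM, GYS1 and PGM1. They were found by symbol, as every probeset of the array whose annotated gene was exactly one of these names. Each name matched 1 probeset, so the genes are 5 of the 30559 probesets measured, and none of them shares a probeset with another gene. The probesets are 14975758 for PHKG1, 15132139 for PHKA1, 14973557 for PYGM, 14955095 for GYS1 and 15093672 for PGM1. RNA from biopsies of the superficial gluteal muscle was hybridised to 18 EquGene-1.0-st arrays. Clenbuterol is a β2-adrenergic receptor agonist used against airway obstruction in horses. All horses were healthy, exercised adult Thoroughbreds that had received no other drugs in the weeks before the study, sedation and local anaesthesia were used for the biopsies, and each horse was its own control, with a baseline biopsy taken the day before the first dose. Of the escalating regimen, 4 horses (E1 to E4) had arrays of day 28 and of baseline. They were given clenbuterol by mouth 2 times a day at 0.8, 1.6 and 2.4 µg/kg for 3 days each and then at 3.2 µg/kg for 21 days, so the day 28 biopsy fell in the highest step. Of the low regimen, 5 other horses (L1 to L5) had arrays of day 14 and of baseline, and the dose was 0.8 µg/kg 2 times a day for 30 days. No horse was followed without clenbuterol, so time and drug cannot be told apart, and dose and day of sampling differ together between the regimens.

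Muscle stores glucose as glycogen, a branched polymer that is built and broken down at the ends of its chains. Glycogen synthase, encoded in muscle by GYS1, adds glucose units, and glycogen phosphorylase, encoded in muscle by PYGM, removes them as glucose 1-phosphate. Phosphorylase is switched on by phosphorylase kinase, a large complex that is itself switched on by calcium and by protein kinase A, the kinase that acts below the β2-adrenergic receptor. PHKG1 encodes the catalytic γ subunit of phosphorylase kinase in muscle and PHKA1 its regulatory α subunit. PGM1 encodes phosphoglucomutase, which interconverts glucose 1-phosphate and glucose 6-phosphate and so joins glycogen to glycolysis.

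Values are log2 signals after robust multichip analysis (RMA), and a difference of 1 is a 2-fold difference. The arrays of the regimens lay on different scales, with medians of 4.45 to 4.50 on day 28 and 4.06 to 4.22 at the escalating baseline, against 2.42 to 2.74 on day 14 and 2.5 to 2.69 at the low baseline, so levels were compared only within a regimen. Within the escalating regimen the medians did not overlap between the days. The spread of values over an array was also narrower on day 28 (SD 1.49 to 1.53) than at baseline (1.71 to 1.80). A difference of array scale between the days and a change with the drug thus cannot be told apart in these values as deposited. The tissue label was checked with 14 skeletal muscle markers, whose summed signal, on the log2 scale, was 15.28 to 15.36 on day 28 and 15.46 to 15.59 at the escalating baseline. It was 12.94 to 14.81 on day 14 and 13.91 to 14.98 at the low baseline, lowest on both days in horse L5. Since these are bulk biopsies, fewer cells of a type and less RNA per cell cannot be told apart.

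The catalytic subunit of phosphorylase kinase gave the largest change of the 5 genes at the escalating dose. PHKG1 had 5.50, 5.52, 5.49 and 5.31 on day 28 in E1, E2, E3 and E4, against 6.82, 7.69, 8.05 and 6.77 at baseline in the same horses. Every horse was lower on day 28, and the days did not overlap: the highest day 28 value lay more than 1 log2 unit below the lowest baseline value. PHKG1 averaged 5.46 ± 0.0975 on day 28 and 7.33 ± 0.638 at baseline (SD, n = 4 each). It fell by 1.88 on the log2 scale (SE 0.233, 95% interval -2.43 to -1.33), which is 0.272 times the baseline level (adjusted p = 0.000705, limma with horse as a block, Benjamini-Hochberg adjustment over all probesets). The day 28 values lay close together and the baseline values apart. It follows from this alone that E3 and E2, the horses with the highest baselines, had the largest changes, -2.56 and -2.17.

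**Figure D1:**
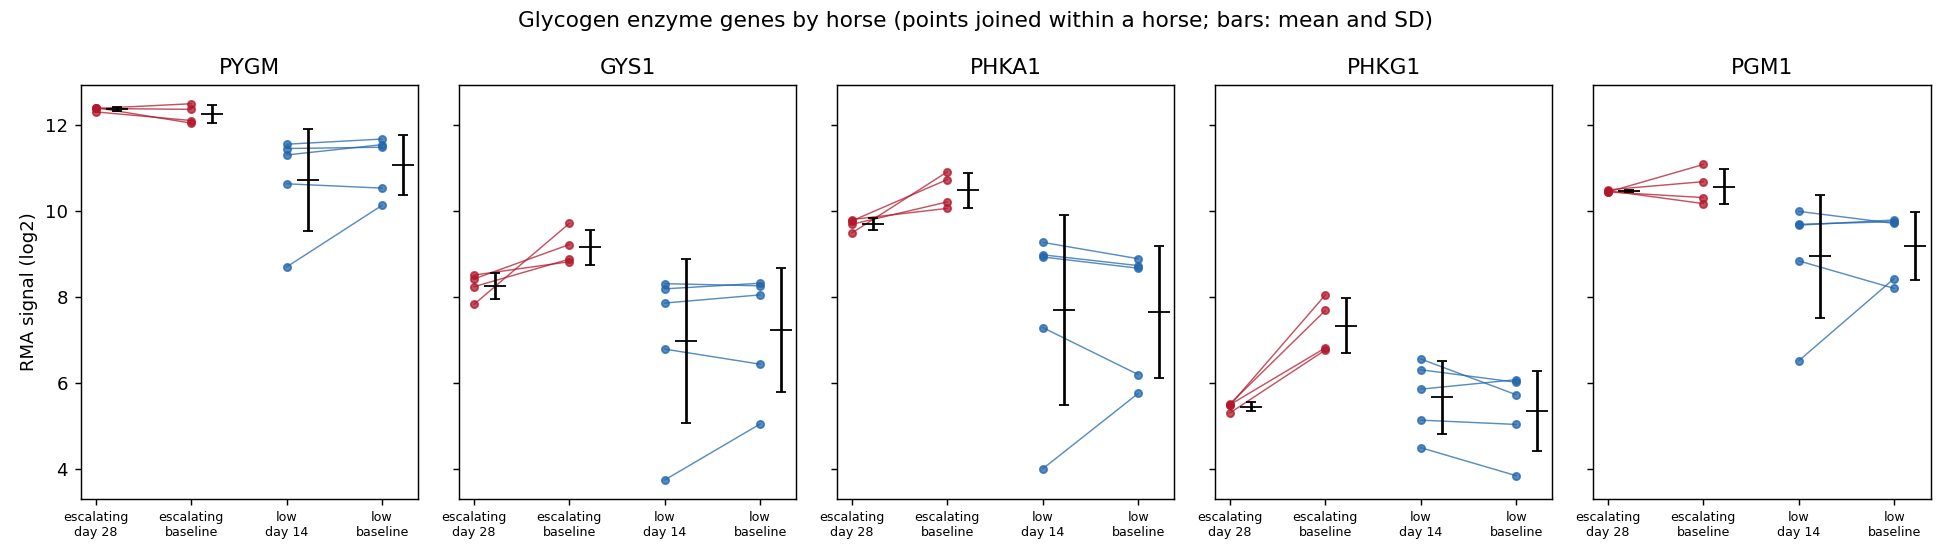
RMA signal (log2) of the 5 genes in each horse, with day 28 left of baseline for the escalating regimen (E1 to E4) and day 14 left of baseline for the low regimen (L1 to L5); lines join the values of 1 horse. PHKG1, PHKA1 and GYS1 do not overlap between day 28 and baseline, and L4 and L5 lie below L1 to L3 in every panel.

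PHKA1, the regulatory subunit of the same kinase, was also lower, and by less. It had 9.69, 9.77, 9.49 and 9.80 on day 28, against 10.21, 10.73, 10.91 and 10.06 at baseline in E1 to E4. Again no day 28 value reached a baseline value, but the gap between the days was small, with E4 at 9.80 on day 28 and at 10.06 before the drug. PHKA1 fell by 0.79 on the log2 scale (SE 0.212, 95% interval -1.29 to -0.29, adjusted p = 0.0203 with limma), although the sign turned under cyclic loess scaling (0.13). The call was lost without E2 (-0.73, adjusted p = 0.0791) or without E3 (-0.58, adjusted p = 0.0659) and held without E1 or without E4. The change of PHKA1 was smaller in size than that of PHKG1 in 4 of 4 horses, by 1.09 ± 0.194 (SD, range 0.80 to 1.21).

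GYS1, the glycogen synthase of muscle, had 8.24, 8.42, 7.83 and 8.51 on day 28 in E1 to E4, against 8.88, 9.22, 9.71 and 8.82 at baseline. The days did not overlap, and E3, which had the highest value of the 4 horses before the drug, had the lowest on day 28. GYS1 fell by 0.91 on the log2 scale (SE 0.258, 95% interval -1.52 to -0.30, adjusted p = 0.0256 with limma), to 0.533 times baseline, although the sign turned under cyclic loess scaling (0.27). Single horses ranged widely, with a change of -1.88 in E3 and of -0.31 in E4. Without E2 the value was -0.94 and was no longer called (adjusted p = 0.0696).

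PYGM, the phosphorylase on which the kinase acts, was the brightest of the 5 probesets and did not pass the test. It had 12.30, 12.38, 12.38 and 12.40 on day 28, against 12.10, 12.36, 12.49 and 12.04 at baseline in E1 to E4, so that all day 28 values lay within the baseline range. The change was 0.12 (SE 0.147, 95% interval -0.23 to 0.47, adjusted p = 0.565 with limma), with 3 horses above their baseline and E3 below it. PGM1 had 10.44, 10.49, 10.44 and 10.47 on day 28, against 10.31, 10.68, 11.08 and 10.17 at baseline. Here too the day 28 values were nearly alike and stood inside the baseline range, with E1 and E4 above their own baseline and E2 and E3 below it. The change of PGM1 was -0.10 (SE 0.188, 95% interval -0.55 to 0.35, adjusted p = 0.708 with limma). The intervals leave room for a change in either direction, so neither gene was shown to be steady.

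At the escalating dose 3 of the 5 genes were therefore called lower and 0 higher, where 20.2% of all probesets were called lower and 24.5% higher (44.7% in either direction). The same 3 genes did not overlap between the days and were lower on day 28, which held for 19.7% of all probesets. Only PHKG1 was lower by more than 2-fold with an unadjusted p under 0.05, which held for 12.4% of probesets. The median change of the 5 genes was -0.79, beside a median of 0.08 over all probesets.

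The general level of change depended on how bright a probeset was, so each gene was set beside the probesets within the same log2 unit of mean signal. PHKG1 (mean 6.39) stood in a class of 2704 probesets with a median change of -0.88, of which 60.1% were called lower and 12.3% had a lower change than PHKG1. GYS1 (mean 8.70) stood in a class of 435 probesets with a median change of -1.21, and 63.9% of them had a lower change. PHKA1 (10.1) and PGM1 (10.5) shared a class of 110 probesets with a median change of -0.60, of which 36.4% changed lower than PHKA1 and 71.8% lower than PGM1. PYGM (12.3) had 34 probesets in its class, with a median change of 0.14. Relative to probesets of like brightness, PHKG1 was thus far below the middle of its class, PHKA1 somewhat below, PYGM near it, and GYS1 and PGM1 above it.

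**Figure D2:**
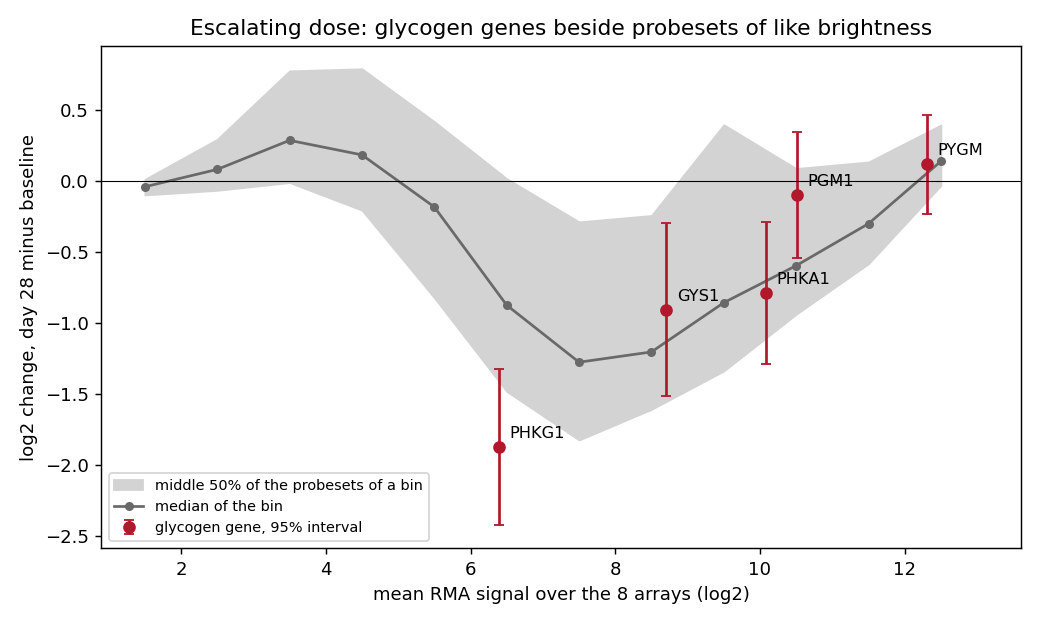
Change at the escalating dose (log2, day 28 minus baseline) of the 5 glycogen genes against the mean RMA signal over the 8 arrays (log2), with the median change and the quartiles of all probesets in each log2 unit of signal. The median is 0.29 for signals of 3 to 4 and -1.28 for signals of 7 to 8, and PHKG1 lies well below the median of its class.

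The calls also depended on the scaling of the arrays. Of the 5 genes only PHKG1 was called lower under each of the 4 scalings, with -1.88 as deposited, -2.20 after median centring, -1.51 after quantile normalization and -1.01 after cyclic loess. GYS1 was called after median centring (-1.23) and not after quantile normalization (-0.32), and PHKA1 likewise (-1.11 and -0.63). Cyclic loess removes a trend of change with brightness, and after it PYGM (0.55, adjusted p = 0.0163 with limma) and PGM1 (0.74, adjusted p = 0.00912 with limma) were called higher. The median change of all probesets was -0.25 after median centring and 0.08 as deposited, and changes after centring are relative to that shift.

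**Figure D3:**
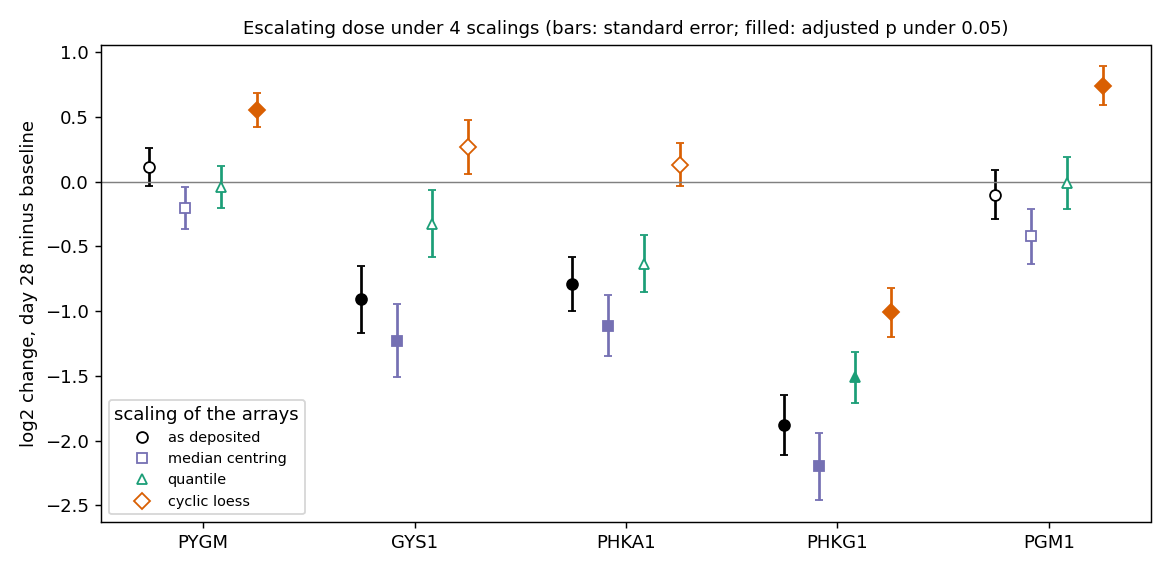
Change at the escalating dose (log2, day 28 minus baseline) of each gene under 4 scalings of the arrays, with 4 horses. Bars are standard errors from limma and filled symbols have an adjusted p under 0.05. PHKG1 lies between -2.20 and -1.01 and is filled throughout, whereas GYS1 and PHKA1 lie above 0 after cyclic loess.

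Differences between genes within the same horse do not depend on a shift common to an array. They do depend on a trend of change with brightness, and the part of that trend in them was not tested. The brightness classes had median changes of -0.88 for PHKG1, -1.21 for GYS1, -0.60 for PHKA1 and PGM1, and 0.14 for PYGM. In 4 of 4 horses the change of PHKG1 was below that of PYGM, by 1.52 to 2.45, below that of GYS1, by 0.68 to 1.37, and below that of PGM1, by 1.45 to 1.98. The change of GYS1 was below that of PGM1 in 4 of 4 horses as well (mean -0.81, range -1.24 to -0.61), and so was that of PHKA1 (mean -0.69, range -0.78 to -0.56). GYS1 and PHKA1 could not be ordered, with a difference of -0.12 ± 0.257 (SD, n = 4). With 4 horses, an exact two-sided sign-flip test of such a difference cannot give a p below 0.125, so they are given as values.

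The horses kept the same order at baseline in all 5 genes, with E3 highest, then E2, E1 and E4, an order noticed after the values were seen that 6.09% of all probesets and 16.1% of the 4458 probesets with a mean of 6 or more shared. The SD over the 4 horses was smaller on day 28 than at baseline in 5 of 5 genes, against 45.3% of all probesets and 57% of the brighter ones. For PYGM it was 0.0443 on day 28 and 0.213 at baseline, and for PGM1 0.0245 on day 28 and 0.408 at baseline. Over the 8 escalating arrays, PHKG1, PHKA1 and GYS1 moved together (r = 0.962 for PHKA1 with PHKG1, 0.972 for GYS1 with PHKA1), while PYGM had r = -0.03 with PHKG1 and 0.07 with GYS1. These correlations are descriptions over arrays that share horses and days. At baseline the summed signal of adipocyte markers was 11.58 in E1 and 11.62 in E4, against 8.416 in E2 and 8.763 in E3. On day 28 it was 8.098 to 8.365. Skin markers had 7.512 in E1 and 7.672 in E4 at baseline, against 5.911 in E2 and 5.798 in E3. The part of these markers in the order and in the SD of the glycogen genes was not tested.

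At the low dose none of the 5 genes passed the test, where 0% of probesets were called by limma (0 of 30558). Without adjustment 2666 probesets (8.72%) had a p under 0.05, and none of the 5 genes was among them. The paired test of the study's methods called 2 probesets after adjustment and a fit of all 18 arrays called 5. PHKG1 had 5.86, 6.56, 6.31, 5.14 and 4.50 on day 14 in L1 to L5, against 6.08, 5.73, 6.02, 5.04 and 3.85 at baseline. Of the 5 horses, 4 were above their own baseline, by 0.10 to 0.83, and the groups overlapped. The change was 0.33 (SE 0.191, 95% interval -0.12 to 0.78, adjusted p = 0.643 with limma). PHKA1 had 8.93, 9.27, 8.98, 7.29 and 4.01 on day 14, against 8.67, 8.89, 8.73, 6.20 and 5.76 at baseline. The first 4 horses were above their baseline and L5 was 1.75 below it, which left a change of 0.05 (SE 0.371, 95% interval -0.82 to 0.91, adjusted p = 0.984 with limma).

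The remaining genes showed the same horse apart from the others. PYGM had 11.30, 11.55, 11.45, 10.63 and 8.70 on day 14 in L1 to L5, against 11.54, 11.67, 11.48, 10.53 and 10.13 at baseline, and L5 gave the lowest value of both days. GYS1 had 8.19, 8.31, 7.86, 6.79 and 3.75 on day 14, against 8.32, 8.26, 8.05, 6.44 and 5.05 at baseline. PGM1 had 9.69, 9.67, 9.99, 8.84 and 6.52 on day 14, against 9.75, 9.79, 9.71, 8.20 and 8.43 at baseline. In L5 these 3 genes were lower on day 14 by 1.43, 1.30 and 1.91, and in the other 4 horses the changes lay between -0.24 and 0.64. The changes over the 5 horses were -0.34 for PYGM (95% interval -0.91 to 0.22, adjusted p = 0.701 with limma), -0.24 for GYS1 (-0.81 to 0.32, adjusted p = 0.80) and -0.23 for PGM1 (-1.05 to 0.58, adjusted p = 0.875). The interval of PGM1 was wide enough to include the change of GYS1 at the escalating dose.

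L1, L2 and L3 were above L4 and L5 on both days in 5 of 5 genes, as in 16.4% of all probesets and 65.9% of the 1184 probesets with a mean of 6 or more. In L5 the summed signal of the skeletal muscle markers was 12.94 on day 14 and 13.91 at baseline, and in L4 14.37 on day 14 and 14.18 at baseline, while L1 to L3 lay between 14.62 and 14.98. The SD over a whole array was 1.412 on day 14 and 1.383 at baseline in L4. It was 1.198 on day 14 and 1.306 at baseline in L5, while L1 to L3 lay between 1.667 and 1.746. The part of these markers and of the array SD in the results was not tested. With L4 and L5 left out the changes were 0.30 for PHKG1, 0.30 for PHKA1, -0.13 for PYGM, -0.09 for GYS1 and 0.03 for PGM1, and none was called, where 0.582% of probesets were. Skin markers had a median change of -1.63 over 6 genes, of which 5 had an unadjusted p under 0.05 and 0 were called by limma. Their summed signal was 4.47 to 4.65 on day 14 and 9.14 to 9.59 at baseline in L1 to L3, while it was 5.38 on day 14 and 5.40 at baseline in L4, and 5.17 on day 14 and 5.20 at baseline in L5.

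Whether the regimens differed was tested on the difference of the changes, escalating minus low, in a fit of the 18 arrays. It passed for PHKG1 alone of the 5 genes, where 16.9% of all probesets passed in the lower direction, 19.7% in the higher and 36.6% in either. The change of PHKG1 was lower at the escalating dose by 2.21 (SE 0.315, 95% interval -2.90 to -1.51, adjusted p = 0.000337 with limma), with 4 of 4 horses lower on day 28 and 4 of 5 higher on day 14. Under cyclic loess it was -0.98 and was not called (adjusted p = 0.0514). For GYS1 the difference was -0.66 (-1.51 to 0.18, adjusted p = 0.211) and for PHKA1 -0.84 (-1.92 to 0.25, adjusted p = 0.219), so the genes called at the escalating dose alone were not shown to differ between the regimens. Leaving out L5 gave calls for both, at an adjusted p of 0.0445 for GYS1 and 0.0068 for PHKA1 with limma. For PYGM it was 0.46 (-0.22 to 1.14, adjusted p = 0.279) and for PGM1 0.13 (-0.87 to 1.14, adjusted p = 0.852).

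**Figure D4:**
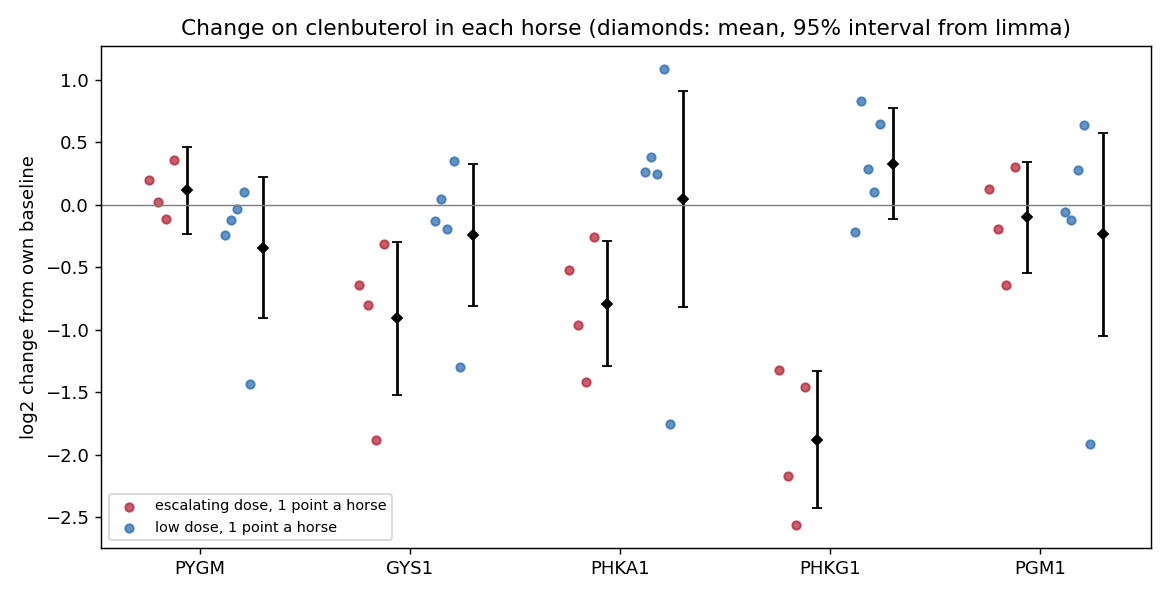
Change of each gene from the own baseline of each horse (log2), with day 28 of the escalating regimen left of day 14 of the low regimen; diamonds are means with 95% intervals from limma. The PHKG1 changes span -2.56 to -1.32 in the escalating regimen and -0.22 to 0.83 in the low regimen, and L5 is the lowest point of the low regimen for the other 4 genes.

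Other enzymes of glycogen metabolism, from a list of 17 of which 16 had a probeset of their own, gave 8 calls lower, 1 higher and 7 not called at the escalating dose, with a median change of -0.54, where 20.2% of all probesets were called lower and 24.5% higher. In the brightness classes of these 16 genes 31.7% of probesets were called lower on average, and the middle class median was -0.18. Under cyclic loess 7 were called lower and 3 higher. STBD1, a protein that tethers glycogen to membranes, averaged 7.07 ± 0.263 on day 28 and 8.98 ± 0.539 at baseline and fell by 1.91 on the log2 scale (adjusted p = 0.000186 with limma). EPM2A, the glycogen phosphatase laforin, averaged 4.67 on day 28, a little above the array medians of 4.45 to 4.50, and 6.28 at baseline. It fell by 1.61 (adjusted p = 0.00194 with limma). NHLRC1, the ubiquitin ligase malin that works with laforin, fell by 0.57 (adjusted p = 0.0137), and GAA, which breaks down glycogen in lysosomes, fell by 0.76 (adjusted p = 0.0052). These 4 genes and PYGB, the brain form of phosphorylase (-0.54, adjusted p = 0.0207), were called lower under each of the 4 scalings, though STBD1 had only -0.67 under cyclic loess. The calls of PYGB and NHLRC1 were lost without E1 or without E4.

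UGP2, which makes the UDP-glucose that the synthase uses, fell by 1.19 (7.67 on day 28 and 8.86 at baseline, adjusted p = 0.00249 with limma), but had 0.04 under cyclic loess. GYG1, the glycogenin that starts a chain, fell by 0.68 (adjusted p = 0.0123), and GBE1, the branching enzyme, by 0.60 (adjusted p = 0.0285), and under cyclic loess these had 0.16 and 0.02. GYG1 lost its call without E2, and GBE1 without E3 or without E4. GYS2, the liver form of glycogen synthase, rose by 0.90 (5.00 on day 28 and 4.10 at baseline, adjusted p = 0.00669) and was called higher under each of the 4 scalings. Its baseline average lay among the array medians of 4.06 to 4.22, and 2611 of the 8230 probesets of its brightness class were called higher. Signals of different probesets cannot be compared as levels, so the liver and muscle forms were not summed.

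The other subunits of phosphorylase kinase did not pass in the values as deposited. PHKB, the β subunit, averaged 9.84 on day 28 and 10.3 at baseline (change -0.46, adjusted p = 0.098 with limma), PHKA2, the α subunit of liver, had a change of 0.10 (adjusted p = 0.609) and PHKG2, the γ subunit of liver, of -0.35 (adjusted p = 0.144). Of the 5 phosphorylase kinase subunits measured, the 2 muscle forms were thus the ones called as deposited, which did not hold under the other scalings. PHKG2 was called lower after quantile normalization (-0.73), median centring (-0.67) and cyclic loess (-0.75), whereas PHKA1 was called only after median centring of these. The liver phosphorylase PYGL (-0.47, adjusted p = 0.0613), the second glycogenin GYG2 (-0.01), and PGM2 (0.18) and PGM2L1 (-0.54, adjusted p = 0.0575), which are related to PGM1, were not called either. Under cyclic loess PHKB (0.47) and PGM2L1 (0.57) were called higher, and after median centring both were called lower (-0.78 and -0.86). PYGL was called lower after quantile normalization (-0.84), median centring (-0.79) and cyclic loess (-0.86).

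At the low dose 0 of these 16 genes were called by limma, with a median change of 0.04, and 3 had an unadjusted p under 0.05, as had 8.72% of all probesets. The 3 were EPM2A (0.70, unadjusted p = 0.0124), STBD1 (0.47, unadjusted p = 0.0105) and GBE1 (0.47, unadjusted p = 0.0366), each above its baseline in 5 of 5 horses, and none of them passed after adjustment. The changes of the regimens differed for 7 of the 16, with 6 lower at the escalating dose and 1 higher, where 16.9% of all probesets were lower and 19.7% higher (36.6% in either direction). STBD1 (-2.38, 95% interval -2.83 to -1.93) and EPM2A (-2.32, -3.09 to -1.54) had the largest differences.

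**Figure D5:**
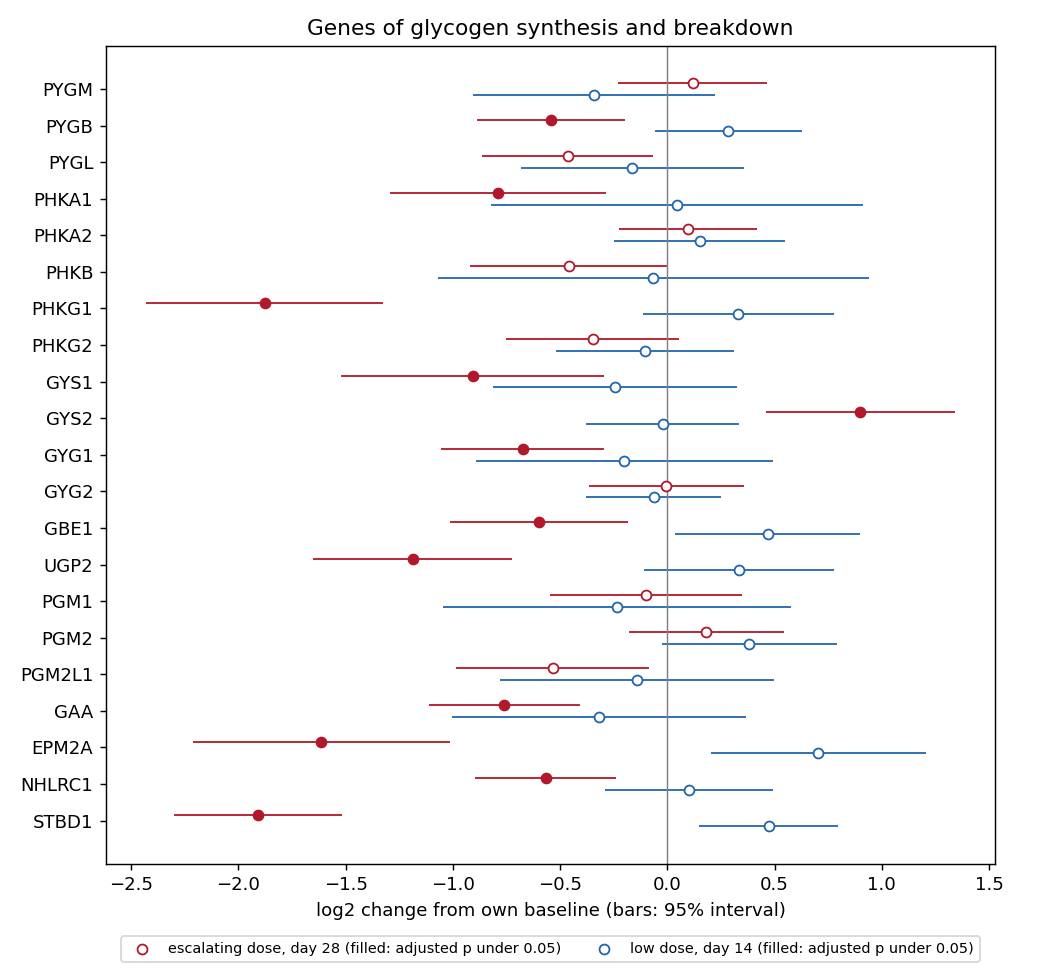
Change from the own baseline (log2, bars are 95% intervals from limma) of the 5 glycogen genes and of the other measured glycogen enzymes, with the escalating regimen above the low regimen for each gene. STBD1, PHKG1 and EPM2A lie at -1.91, -1.88 and -1.61 at the escalating dose, and at 0.47, 0.33 and 0.70 at the low dose.

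Among the signalling genes that act on glycogen synthase and phosphorylase, 22 of 28 listed were measured, and at the escalating dose 16 were called lower and 0 higher, with a median change of -1.18, where 20.2% of all probesets were called lower. In the brightness classes of these 22 genes 48.1% of probesets were called lower on average, and the middle class median was -0.86. Under cyclic loess 11 were called lower and 2 higher, with a median of -0.47. PPP1R3C, which brings protein phosphatase 1 to glycogen, gave the smallest p. It averaged 6.00 on day 28 and 8.32 at baseline and fell by 2.32 on the log2 scale (adjusted p = 8.3e-05 with limma). PPP1R1A, an inhibitor of the same phosphatase, averaged 9.52 on day 28 and 10.96 at baseline and fell by 1.44 (adjusted p = 0.000228). PRKACA, a catalytic subunit of protein kinase A, averaged 4.54 on day 28, near the array medians of 4.45 to 4.50, and 6.32 at baseline. It fell by 1.78 (adjusted p = 0.000156 with limma). Of the other subunits measured, PRKACB, also catalytic, had -0.30 (adjusted p = 0.241) and was called higher under cyclic loess (0.62), and the regulatory PRKAR1A had -0.70 (adjusted p = 0.108). Of 7 subunits of AMP-activated protein kinase, an energy sensor, 6 were called lower, and 4 under cyclic loess. Those with the smallest p were PRKAG1, PRKAA2 and PRKAG3. PRKAG1 averaged 4.37 on day 28, also near the array medians, and 6.23 at baseline, and fell by 1.86 (adjusted p = 0.000124 with limma). PRKAA2 fell by 1.66 (adjusted p = 0.000333) and PRKAG3 by 1.44 (adjusted p = 0.000323). The catalytic PRKAA1 was not called (-0.03, adjusted p = 0.939), and PRKAB2 (-1.01) lost its call without E2 or without E3. GSK3B, a kinase that inhibits glycogen synthase, fell by 1.35 (adjusted p = 0.000359). PRKAG3 (-0.22) and GSK3B (-0.15) were not called under cyclic loess, and the other 5 were called lower under all 4 scalings. Their values under cyclic loess were -1.68 for PRKAG1, -1.52 for PRKACA, -1.15 for PPP1R3C, -0.55 for PPP1R1A and -0.50 for PRKAA2.

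Genes of glucose entry and exit were mixed, with 2 called higher and 4 lower of 11 measured and a median change of -0.02, where 24.5% of all probesets were called higher and 20.2% lower. One of the higher calls, SLC2A3, which carries glucose into cells (0.45, adjusted p = 0.0347 with limma), was lost without any one of the horses and under the other 3 scalings. G6PC2, a glucose 6-phosphatase known from pancreatic islets, was the one of them among the 8 signalling and glucose genes with the smallest p. It averaged 5.34 on day 28 and 3.51 at baseline and rose by 1.83 (adjusted p = 0.000261 with limma), also under the other scalings. Its baseline average lay below the array medians of 4.06 to 4.22, and 2611 of the 8230 probesets of its brightness class were called higher. All 8 genes were called without each horse in turn. At the low dose 0 genes of either list were called by limma, with medians of 0.10 for the signalling genes and -0.07 for the glucose genes, and 3 and 1 of them had an unadjusted p under 0.05.

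Markers of other cells and tissues were also counted at the escalating dose, where 24.5% of all probesets were called higher and 20.2% lower. Of 9 endothelial markers 6 were lower and 0 higher (median -1.21, summed signal 8.27 to 8.44 on day 28 and 9.50 to 10.2 at baseline), and of 7 smooth muscle markers 5 were lower and 0 higher (median -1.14, summed signal 7.91 to 8.06 on day 28 and 9.29 to 9.55 at baseline). Of 7 adipocyte markers 2 were lower (8.10 to 8.37 on day 28 and 8.42 to 11.6 at baseline). Higher calls were found for 4 of 7 leukocyte, 4 of 6 liver, 2 of 6 brain, 2 of 4 red blood cell and 3 of 6 skin markers, with 1 skin marker lower. Many of these were dim, and the liver markers had median signals of 3.545 to 3.67 at baseline. Over all probesets the median change was 0.29 for signals of 3 to 4 and 0.185 for signals of 4 to 5. Of the 14 skeletal muscle markers 4 were lower and 0 higher, with a median change of -0.18. Their part in the results on glycogen genes was not tested.

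The genes most like each glycogen gene over the 18 arrays, after the mean of each regimen was subtracted, were sought among 15731 genes. For PHKG1 they were TMOD1 (r = 0.972), PI4KB (0.969) and DAG1 (0.969), and for PHKA1 PTP4A2 (0.993), PPP1R27 (0.989) and TMOD4 (0.987). For GYS1 they were PDLIM3 (0.992), DLAT (0.990) and COQ10A (0.990). PYGM was most like ATP2A1 (0.987), DES (0.977) and SRL (0.974), and PGM1 most like ACTN3 (0.979), PKM (0.977) and SRL (0.977). An r above 0.9 was reached by 588 genes for PHKG1, 737 for PHKA1, 642 for GYS1, 81 for PYGM and 112 for PGM1. The arrays share horses, days and scale, and L4 and L5 lie low in all 5 genes, so these values are descriptions.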

How the data were processed

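The 18 EquGene-1.0-st arrays were hybridised with biotin-labelled samples, made by way of cDNA from RNA of superficial gluteal muscle biopsies. The deposited log2 values were made by the authors with RMA from perfect-match probes in Affymetrix Expression Console, and Transcriptome Analysis Console 3.0 is also named in the submitters' processing notes. Which arrays were normalized together is not given in the sources used here. RMA compresses low signals, and its scale is relative, so signals of different probesets were not compared as levels. The number of arrays limits the precision.

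The values were analysed as deposited in R 4.3.3 with limma 3.58.1. The escalating and the low arrays were fitted apart, and horse entered each fit as a block, since both biopsies of a pair come from the same animal (the deviations of the paired arrays had r of -0.02 to 0.12 at the escalating and 0.42 to 0.71 at the low dose). The difference of the changes was fitted on all 18 arrays. Tests were two-sided, p-values were adjusted by Benjamini and Hochberg over all probesets, and an adjusted p under 0.05 was called. The 1 missing value left 30558 probesets in fits with that array. No 2 arrays were copies (highest r 0.976). Where a listed gene had several probesets, the one with the highest mean was used, and 16789 probesets had a single symbol. The script was tested on simulated data.

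All glycogen enzymes are named, and of the signalling and glucose lists the 8 genes with the smallest p, and for each of the 5 genes the 3 most like it. The genes, lists and alternatives were chosen with earlier results of these data known. The alternatives were a 50% filter, 3 scalings, array weights, robust or trended variances, a fit without the block, the methods' paired test, 1 fit of all arrays, single-symbol probesets and left-out horses. No sequences were used here.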

Additional observations from a re-analysis of the deposited data

Results flagged for a closer look

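Of 30 sets of values of the 5 glycogen genes (levels in each group and changes in each regimen), 2 held a horse far from the others, where chance gives about 1 in 20. One is the change of PYGM in L5 at the low dose, -1.43, whose gap to the nearest horse was 0.778 of the whole range. The other is the day 28 level of PHKG1 in E4, 5.31, at 0.857 of the range, a range that spans only 5.31 to 5.52.

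The change at the escalating dose and the change at the low dose differed, by a test of the difference itself with limma, in 1 of the 5 glycogen genes and 7 of the 16 other enzymes, where 36.6% of all probesets did. PHKG1 (-2.21) was the one of the 5. Among the other enzymes the difference was -2.38 for STBD1, -2.32 for EPM2A, -1.52 for UGP2, -1.07 for GBE1, -0.83 for PYGB, -0.67 for NHLRC1 and 0.92 for GYS2. Of the 8 signalling and glucose genes, which were chosen for a small p at the escalating dose, one part of this difference, 7 passed, so their count carries no evidence of its own. It was -3.09 for PPP1R3C, -2.23 for PRKACA, -2.14 for PRKAG1, -1.80 for GSK3B, -1.47 for PRKAG3 and -1.41 for PRKAA2, and for G6PC2 it was 1.76. Dose, day of sampling, horses and array scale differ together between the regimens and cannot be told apart.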

How the results depend on the processing

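For the 5 glycogen genes in 3 comparisons, 260 alternative values were computed, of which 224 kept their direction and their side of the threshold. With the sign kept, 9 lost a call and 6 gained one, and 21 changed sign, whether or not they crossed the threshold. Among these 21, under cyclic loess at the escalating dose, GYS1 and PHKA1 also lost their calls and PGM1 gained one. PHKG1 was called lower at the escalating dose under every alternative run (-2.20 to -1.01, adjusted p of 4.66e-05 to 0.0367 with limma or the paired test, and -2.06 to -1.65 without each horse). At that dose quantile normalization gave -0.041 for PYGM, -0.32 for GYS1 and -0.63 for PHKA1, median centring gave -0.21 for PYGM, and cyclic loess gave 0.55 for PYGM, 0.27 for GYS1, 0.13 for PHKA1 and 0.74 for PGM1. The paired test of the methods called 8389 probesets and neither GYS1 (-0.91, adjusted p = 0.153) nor PHKA1 (-0.79, adjusted p = 0.12), and the fit of all 18 arrays did not call PHKA1 (-0.79, adjusted p = 0.113). Without each horse in turn the value of GYS1 was -1.11 to -0.58, of PHKA1 -0.97 to -0.58 and of PGM1 -0.23 to 0.08 (positive without E3), with 11079 to 12136 probesets called. At the low dose quantile normalization gave -0.0915 for PHKA1, the paired test called 2 probesets, the fit of all arrays 5, and leaving out L4 and L5 178, with 0.0333 for PGM1. Without each horse PHKA1 had -0.22 to 0.50, GYS1 -0.39 to 0.02 and PGM1 -0.45 to 0.19. For the difference of the changes the 50% filter called 6813 probesets, quantile normalization gave 0.0485 for GYS1, and median centring -0.24 for PGM1. Cyclic loess gave 0.58 for GYS1, 0.18 for PHKA1, -0.98 for PHKG1 and 0.86 for PGM1 (adjusted p = 0.0144). Array weights gave -1.001 for PHKA1 (adjusted p = 0.0321) and -0.0229 for PGM1, and leaving out L4 and L5 gave -1.09 for PHKA1 (adjusted p = 0.0132) and -0.13 for PGM1. Without each horse GYS1 had -0.93 to -0.34, PHKA1 -1.29 to -0.58 and PGM1 -0.29 to 0.35. The median change at the escalating dose was -0.86 after centring and -0.31 after cyclic loess for the other glycogen enzymes, -0.90, -1.501 and -0.47 after quantile normalization, centring and cyclic loess for the signalling genes, and -0.35 after centring for the glucose genes. The cause of these shifts was not tested. Without the replicate block 13989 probesets were called at the escalating dose, 0 at the low dose and 6960 for the difference, and the pairing changed no call of the 5 genes (PHKG1 at the escalating dose -1.88, adjusted p = 0.00035). With 4 and 5 horses and no untreated group, an uncalled gene was not shown to be steady.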
